A study of Mus musculus with 5 samples.

Results

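The fibroblast and mesenchymal matrix genes described here are 30 named genes whose products build, crosslink, bind or cut the fibrous extracellular matrix, or mark the contractile and migratory cells that make it. They were taken by name from the 18193 genes with a probe set of a single gene symbol, and 29 of the 30 had one. Expression of Fbn1 was not analysed here, and the gene enters only the promoter counts below. Each gene was read from its brightest probe set, judged by the mean of the 5 arrays, with its other probe sets as a check. Those of Vim, Col6a2, Acta2 and Tgfbi carry a suffix that marks probes which may also match other transcripts.

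Mouse embryonic stem cells were measured on 5 Affymetrix arrays, 1 per group, after depletion of Tet1, the dioxygenase that oxidizes 5-methylcytosine. J1 cells, cultured with mouse embryonic fibroblast (MEF) feeders, received either a control siRNA or an siRNA against Tet1 by transfection and were collected at day 4. E14 cells, cultured without feeders, carried lentiviral scramble shRNA, Tet1 shRNA3387 or Tet1 shRNA2863 and were harvested after 4 days of puromycin. Both lines are established, and the sources used here do not say whether feeders were removed before RNA was extracted. The effects of line, feeders and delivery method on J1 against E14 cannot be told apart, and in bulk RNA fewer cells of a type and less RNA per cell cannot be told apart either. With single arrays, the p-values do not measure a spread between replicates. In tests over both lines, the spread comes from differences between the hairpin arrays and from depletion differences that are not the same in both lines. Either may be technical. A gene that differed with depletion in a single line thus has a larger SE.

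Fibroblasts secrete procollagen chains that are hydroxylated, folded and trimmed into fibrils, then crosslinked by lysyl oxidases. Fibronectin and matricellular proteins such as thrombospondins join this matrix to integrins, while metalloproteinases cut it and their tissue inhibitors restrain them. Feeder layers are made of such cells, whereas naive stem cells are epithelial and are known for laminin-rich rather than fibrillar matrix. TGF-beta signalling is the classical inducer of many of these genes.

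Values below are log2 probe set values, and a set of 5 values always follows the order J1 control siRNA, J1 Tet1 siRNA, E14 scramble, E14 shRNA3387 and E14 shRNA2863. Tet1, the check of the labels, read 10.85, 8.31, 10.95, 9.24 and 10.06, so that it was lower on each depleted array than on its own control. The 12 stem cell markers examined, led by Dppa5a, Sox2 and Zfp42, were above the filter level on all 5 arrays. The filter level is the 40th percentile of all probe sets other than array controls, which lay between 3.03 and 3.12. Array control probe sets for 18S ribosomal RNA (3′ end) read 6.05 and 5.76 on the J1 arrays and 9.75 to 11.43 on the E14 arrays. The 3′ minus 5′ difference of beta-actin was 0.63 and 0.31 on the J1 arrays and 0.41 to 0.54 on the E14 arrays. The part of these differences in the results below was not tested.

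Of the 29 measured genes, 25 exceeded the filter level on at least 1 array and were kept (86.2%, beside 74.9% of all measured genes). Several fibroblast genes gave little signal in any culture. Postn (periostin, a matricellular protein of fibroblasts), the small leucine-rich proteoglycan Dcn, the collagen VI chain gene Col6a1 and the fibroblast surface protease Fap stayed under it on every array. Postn read 2.44 to 2.56, Dcn 2.50 to 2.66, Col6a1 2.04 to 2.07 and Fap 2.85 to 2.88. The crosslinking enzyme Lox and the PDGF receptor Pdgfrb were kept but flat, at 3.54 to 3.56 and 3.59 to 3.64. Together with Col6a1 and Fap they were the 4 measured members whose values spanned at most 0.1 over the arrays, a pattern also seen in 26.9% of all measured genes. Loxl1, a lysyl oxidase of elastic fibres, read 4.54 to 4.56 on 4 arrays and 4.86 with shRNA2863. The proteoglycan Lum, at 3.01 to 3.19, lay at the filter level.

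**Figure D1:**
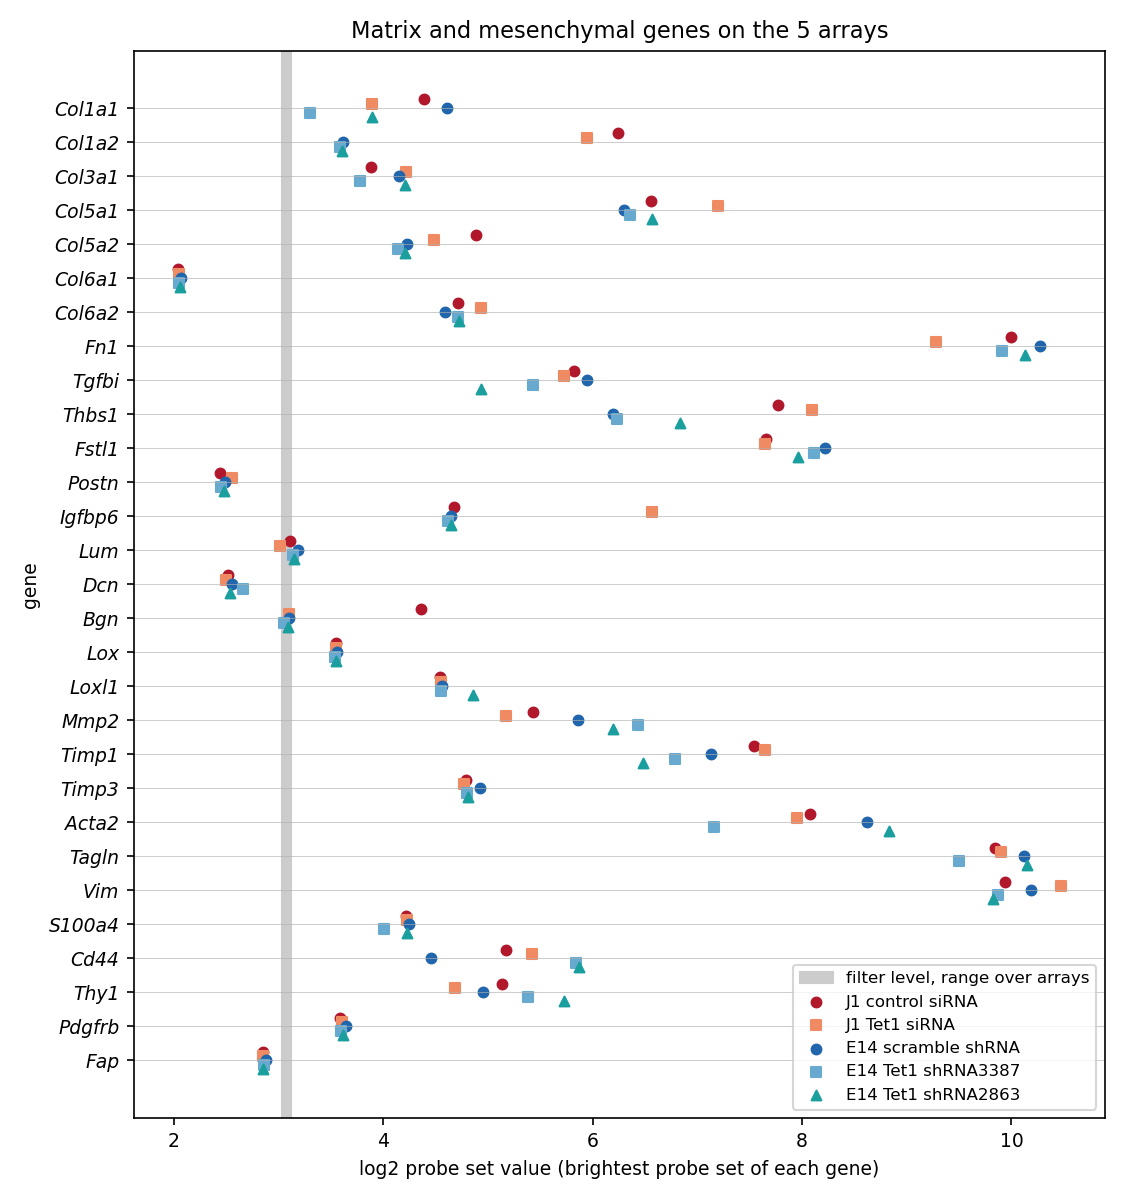
Log2 values of the 29 measured genes on the 5 arrays (1 point per array), ordered by role, with the filter level as a grey band. Fn1, Vim, Tagln and Acta2 lie far to the right of the band on every array, Col1a2 and Thbs1 separate the J1 from the E14 arrays, and Bgn and Igfbp6 each stand out on 1 J1 array.

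Between the systems, Col1a2 and Thbs1 were the members called in the test of E14 against J1, both higher in J1. The test was limma with a system term and a Tet1 term, adjusted by Benjamini-Hochberg over 13619 kept genes. The 2 called were 8.0% of the 25 kept members, beside 14.2% of all kept genes, of which 870 were higher and 1066 lower in E14. At an unadjusted p under 0.05 were 8 members (32.0%), beside 32.2% of all kept genes. The median of the E14 mean minus the J1 mean was 0.00 over the kept members and 0.03 over all kept genes. The adjusted call is lost for both genes when any of the 5 arrays is left out, where limma calls 0 genes of all kept, with 3357 to 4113 at an unadjusted p under 0.05. The differences then ran from -2.62 to -2.35 for Col1a2 and from -1.73 to -1.43 for Thbs1.

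Col1a2 encodes the chain that pairs with the product of Col1a1 in type I collagen, the main fibrillar collagen of fibroblasts. It read 6.24, 5.95, 3.62, 3.59 and 3.61. Both J1 arrays were high and the 3 E14 arrays nearly equal, with no overlap. The E14 values lay about as close together as those of the flat Lox and Pdgfrb. Whether they hold signal was not tested, and the fold and SE below depend on that level. The difference was -2.47 ± 0.10 (SE, 2 J1 and 3 E14 arrays; limma adjusted p = 0.0129), 5.52-fold lower in E14. Its second probe set read 4.41, 3.55, 2.70, 2.63 and 2.69, under the filter level on each E14 array. When every probe set was tested on its own, it differed by -1.24 ± 0.22 (SE, limma adjusted p = 0.043).

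Thbs1, thrombospondin, is a matricellular glycoprotein that binds collagen, CD47 and latent TGF-beta. It read 7.77, 8.10, 6.19, 6.23 and 6.83, again without overlap between the lines. The difference was -1.57 ± 0.22 (SE, limma adjusted p = 0.0318), 2.98-fold lower in E14. The second probe set read 7.06, 7.61, 4.97, 4.90 and 4.91 and differed by -2.44 ± 0.18 (SE, limma adjusted p = 0.0126 with each probe set on its own).

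The partner chain of Col1a2 gave no such pattern in its brightest probe set. Col1a1 read 4.39, 3.89, 4.61, 3.30 and 3.89, so the lines overlapped. Its other probe set read 4.88 on the J1 control array and 1.87 to 1.89 on the other 4 arrays. It was thus above the filter level on the J1 control array alone. Bgn, the small proteoglycan biglycan, followed the same outline in its brightest probe set, with 4.36 on the J1 control array and 3.05 to 3.10 on the others. The other probe sets of Bgn were under the filter level on every array and did not show it. The J1 control array stood at least 2-fold above all 4 others in 0.176% of kept genes and 0.237% of kept probe sets. The probe sets of Bgn and Col1a1 with this outline were singled out after their values were seen. The chains of type I collagen therefore did not give a single pattern. Col1a2 was high on both J1 arrays, and 1 of the probe sets of Col1a1 on the control array only.

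The promoter sequences of genes on which the results turn are shown because Tet1 acts at cytosines followed by guanine, and each such CG is in capitals. They are the 250 bases before the annotated start, 5′ to 3′, from RefSeq on GRCm38.p6, and 17 of the 30 members were matched by symbol, with 19 promoters. Thbs1 and Col1a1 were not among them, so no window is shown for these genes. Col1a2 lies at chr6:4505368-4505617 on the plus strand, Bgn at chrX:73483351-73483600 on the plus strand, Cd44 at chr2:102901666-102901915 on the minus strand and Igfbp6 at chr15:102143936-102144185 on the plus strand.
Col1a2: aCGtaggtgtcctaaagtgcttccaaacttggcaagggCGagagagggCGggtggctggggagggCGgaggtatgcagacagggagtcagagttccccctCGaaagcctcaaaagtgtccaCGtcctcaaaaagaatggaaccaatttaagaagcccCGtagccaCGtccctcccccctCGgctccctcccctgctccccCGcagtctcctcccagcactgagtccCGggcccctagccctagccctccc
Bgn: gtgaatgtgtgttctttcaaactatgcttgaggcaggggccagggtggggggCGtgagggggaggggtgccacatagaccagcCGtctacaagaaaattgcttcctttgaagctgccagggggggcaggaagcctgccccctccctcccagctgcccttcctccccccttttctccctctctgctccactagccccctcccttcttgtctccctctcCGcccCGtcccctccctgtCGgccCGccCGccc
Cd44: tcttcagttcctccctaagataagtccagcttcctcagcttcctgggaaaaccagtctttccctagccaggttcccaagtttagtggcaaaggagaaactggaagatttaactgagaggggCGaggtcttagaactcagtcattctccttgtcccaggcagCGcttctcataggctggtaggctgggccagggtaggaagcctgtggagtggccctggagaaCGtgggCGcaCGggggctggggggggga
Igfbp6: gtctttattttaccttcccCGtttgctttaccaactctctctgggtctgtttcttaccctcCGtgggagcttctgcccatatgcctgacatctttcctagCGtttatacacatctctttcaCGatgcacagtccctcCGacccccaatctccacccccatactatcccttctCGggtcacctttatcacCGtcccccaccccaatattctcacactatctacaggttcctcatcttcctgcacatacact

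These windows held 11, 7, 5 and 7 CG dinucleotides, for Col1a2, Bgn, Cd44 and Igfbp6. The median was 7 over the 19 member promoters and 6 over all 32851 promoters of that length. Member promoters ranged from 0 in Col3a1 to 28 in Col5a1. The letters TATAAA, on either strand, were found in 5 of the 19, among them Igfbp6, and in 12.4% of all promoters. CCAAT on either strand was found in 4, among them Col1a2 and Igfbp6, and in 33.8% of all. CAGACA, which holds the letters of a SMAD-binding element, was found on either strand in 4, among them Col1a2, and in 17.1% of all. These matches describe the letters in the windows.

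The other fibrillar collagens differed less between the lines. Col5a1, a chain of the collagen that nucleates type I fibrils, read 6.56, 7.20, 6.30, 6.36 and 6.57. The E14 minus J1 difference was -0.53 ± 0.17 (SE, limma adjusted p = 0.128). Col5a2, its partner chain, read 4.89, 4.48, 4.23, 4.14 and 4.21, with both J1 arrays above the 3 E14 arrays and a difference of -0.46 ± 0.11 (SE, limma adjusted p = 0.0825). Col3a1, the collagen of compliant tissues, read 3.88, 4.22, 4.15, 3.78 and 4.21, and its lines overlapped. The second Col5a1 probe set was ordered by line, at 6.38 and 6.44 in J1 and 6.03 to 6.17 in E14. The second Col3a1 probe set was higher on the E14 arrays, at 3.26 to 3.86 against 2.99 and 3.01. Col6a2, a chain of the beaded-filament collagen VI, read 4.59 to 4.93 and overlapped too.

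Among the glycoproteins, the fibronectin difference had the opposite sign to that of thrombospondin, but the lines overlapped in its brightest probe set. Fn1, which encodes fibronectin, read 10.00, 9.28, 10.27, 9.91 and 10.13, with 0.27 for E14 scramble minus J1 control. Its difference of 0.54 ± 0.16 (SE, higher in E14) did not pass the threshold (limma adjusted p = 0.106), nor did the 1.16 ± 0.39 of its second probe set. Fstl1, a secreted BMP-binding glycoprotein, read 7.66, 7.65, 8.22, 8.11 and 7.96, with the 3 E14 arrays above both J1 arrays. It differed by 0.46 ± 0.11 (SE, limma adjusted p = 0.0767), while its second probe set differed by 1.38 ± 0.26 and was called on its own (limma adjusted p = 0.047). That second probe set read 6.93, 5.75, 7.80, 7.61 and 7.43. Its J1 Tet1 siRNA array lay -1.18 from the J1 control, where the brightest probe set differed by -0.01. Tgfbi, a TGF-beta-induced integrin ligand, read 5.82, 5.73, 5.95, 5.43 and 4.93, and its lines overlapped.

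The proteases and inhibitors were split. Mmp2, a gelatinase, read 5.43, 5.17, 5.86, 6.43 and 6.19, with every E14 array above both J1 arrays. It differed by 0.84 ± 0.22 (SE, limma adjusted p = 0.0881), and quantile normalization brought it past the threshold with 0.98. Timp1, an inhibitor of metalloproteinases, read 7.54, 7.65, 7.13, 6.79 and 6.48, with both J1 arrays on top and a difference of -0.76 ± 0.21 (SE, limma adjusted p = 0.0986). The matrix-bound inhibitor Timp3 read 4.77 to 4.92. Both Mmp2 and its inhibitor Timp1 were thus ordered by line without overlap, in opposite directions, and neither passed the limma threshold.

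Among the cytoskeletal and surface markers of mesenchymal cells, Vim, Tagln and Acta2 were well above the filter level on every array. The lines overlapped in the brightest probe sets of these genes. Vim, the intermediate filament vimentin, read 9.94, 10.47, 10.19, 9.87 and 9.82. Tagln, the actin-binding protein transgelin, read 9.84, 9.90, 10.12, 9.50 and 10.15. Acta2, smooth muscle actin, read 8.08, 7.95, 8.62, 7.16 and 8.83. A second Vim probe set read 10.20, 10.66, 10.11, 9.57 and 9.66, with J1 above E14 and a difference of -0.64 ± 0.26 that was not called. In the brightest probe sets of Tagln and Acta2 both the highest and the lowest array were E14 arrays, with J1 between them, while for Vim the E14 scramble array lay between the J1 arrays and both hairpin arrays below them. For Vim, Tagln and Acta2, in that order, E14 minus J1 was -0.25 ± 0.23, 0.08 ± 0.25 and 0.26 ± 0.58 (SE). S100a4, a calcium-binding protein used as a fibroblast marker, read 4.01 to 4.25, and Thy1, a surface glycoprotein of fibroblasts, 4.69 to 5.73.

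Cd44, the hyaluronan receptor, depended on the probe set. The brightest one read 5.17, 5.42, 4.46, 5.84 and 5.87 and differed by -0.06 ± 0.30 between the lines. The second read 4.92, 5.39, 3.02, 3.69 and 3.88, with both J1 arrays above all E14 arrays. On its own it differed by -1.73 ± 0.12 (SE, limma adjusted p = 0.0117). The control arrays were ordered alike by both, by -0.71 and -1.90 for E14 scramble minus J1 control.

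Over all kept members, the 2 J1 arrays lay above the 3 E14 arrays in 5 genes, beside 21.8% of all kept genes, and below them in 4, beside 27.1%. Higher in J1 were Col1a2, Col5a2, Timp1, Thbs1 and Igfbp6. Higher in E14 were Lum, Mmp2, Timp3 and Fstl1, of which Lum and Timp3 spanned under 0.2. For Igfbp6 the order rests on 4.68 on the J1 control array against 4.65 as the highest E14 value. These shares of 20.0% and 16.0% were not above those of genes at large. Between the control arrays alone, Col1a2, Thbs1 and Bgn were at least 2-fold lower in E14 and 0 members at least 2-fold higher, beside 4.84% and 3.52% of kept genes (8.36% in either direction). At 1.5-fold Col5a2 and Cd44 joined them, 5 members beside 23.1%. Between each hairpin array and the J1 Tet1 siRNA array, 4 and 6 members passed 2-fold, beside 10.9% and 9.6% of kept genes, with Col1a2, Thbs1 and Igfbp6 lower and Mmp2 higher in both.

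**Figure D2:**
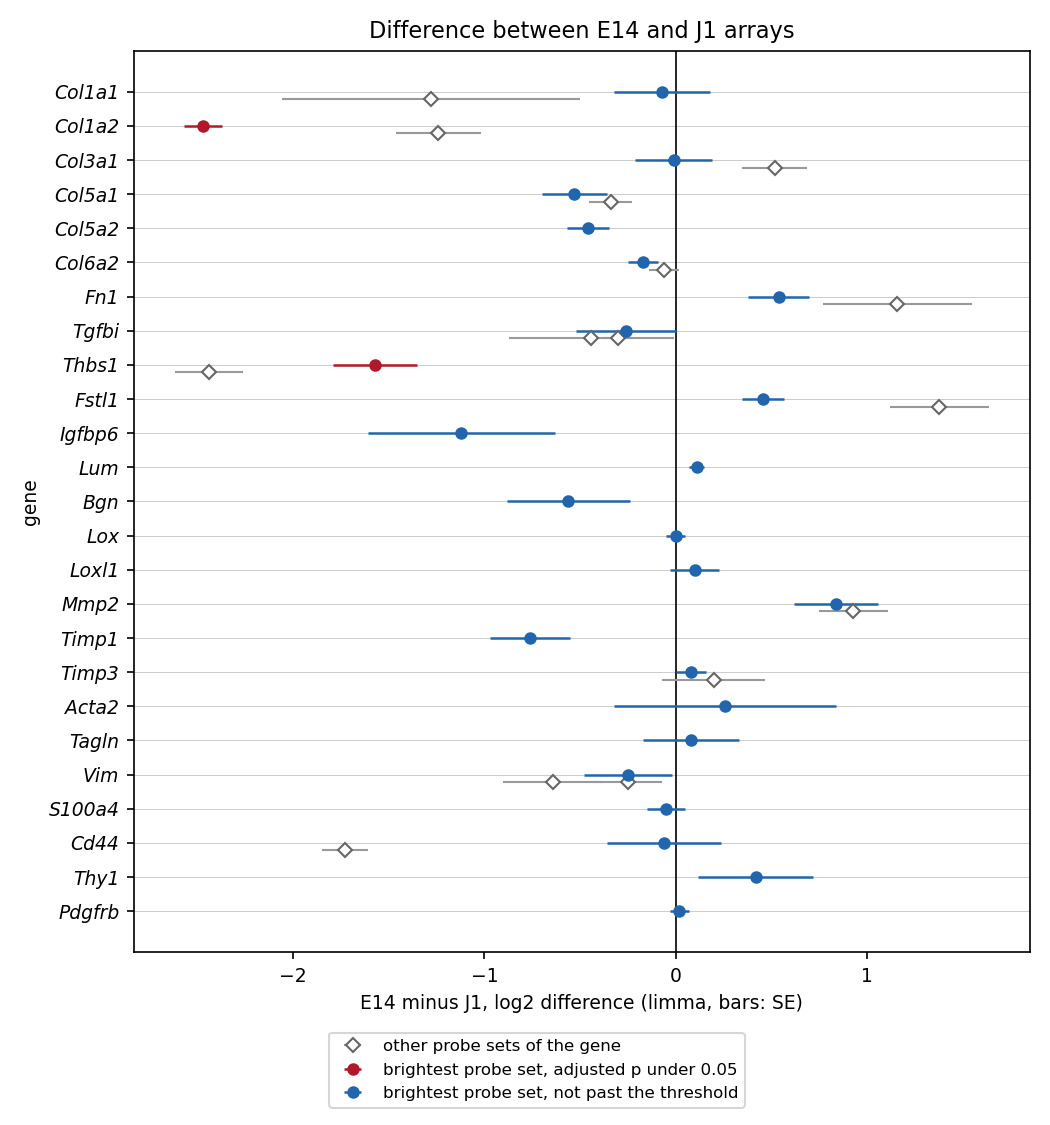
E14 minus J1 log2 difference from limma for the 25 kept members, with SE bars; filled points are the brightest probe set and open diamonds the gene's other probe sets above the filter level. Col1a2 at -2.47 and Thbs1 at -1.57 are the filled points past the threshold, and the second Cd44 probe set at -1.73 lies far from the first at -0.06.

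Genes that act with the members were examined in 7 lists of 139 genes, of which 113 were kept. In the limma test 20 of them were higher in J1 (17.7%, beside 7.83% of all kept genes) and 7 higher in E14 (6.19%, beside 6.39%). As for the members, these calls are lost without any single array, and each rests on 1 probe set. The lists were chosen with earlier results of these data known, so the shares do not test whether such genes differ more often. Collagen processing gave 5 higher in J1 and 1 higher in E14 among 21 kept. The collagen chaperone Serpinh1 differed by -1.89 ± 0.34 (SE, limma adjusted p = 0.0458), the lysyl hydroxylase Plod2 by -1.03 ± 0.17 and the procollagen C-proteinase Bmp1 by -0.96 ± 0.10. P4hb, a subunit of prolyl hydroxylase and the list's gene of highest mean level, differed by -0.92 ± 0.12. The fibril-associated collagen gene Col14a1 was the 1 called in the other direction, at 1.06 ± 0.09; it lay under the filter level on the J1 arrays, and Bmp1 lay at it on the E14 arrays. Pcolce (-0.53 ± 0.23), an enhancer of procollagen cleavage, and the isomerase Ppib (-0.01 ± 0.12) were not called.

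Matricellular genes showed calls both ways, with 5 higher in J1 and 2 higher in E14 among 15 kept. The CCN protein gene Ccn4 read 5.92, 5.35, 3.52, 2.34 and 2.66 and differed by -2.66 ± 0.17 (SE, limma adjusted p = 0.0166), with both hairpin arrays under the filter level. Sparc, a collagen-binding glycoprotein, read 10.95, 11.38, 9.32, 9.28 and 9.42, a difference of -1.86 ± 0.13. The YAP and TGF-beta targets Ccn1 and Ccn2 differed by -1.66 ± 0.14 and -1.05 ± 0.09. Igfbp2, which binds insulin-like growth factors, was higher in E14 by 1.94 ± 0.23.

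Matrix receptors were called in 1 direction, with 6 of 15 kept higher in J1 and 0 higher in E14. The integrin genes Itga3, Itga5 (the alpha subunit of the fibronectin receptor) and Itgb1 differed by -1.97 ± 0.14, -1.40 ± 0.07 and -1.38 ± 0.11 (SE), and Itga6 and Itgav each by -0.76. The syndecan Sdc4 differed by -1.37 ± 0.20, and the collagen-binding kinase gene Ddr1 by -0.06 ± 0.24. Among 11 metalloproteinase genes the inhibitor Timp2 was higher in J1 (-1.59 ± 0.19) and Mmp11 higher in E14 (1.30 ± 0.19), whereas Mmp14 (-1.35 ± 0.29) and Adamts1 (0.24 ± 0.19) were not called. Among 14 contractile genes the caldesmon gene Cald1 (-1.10 ± 0.17) and the tropomyosin gene Tpm1 (-0.76 ± 0.10) were higher in J1 and the myosin light chain gene Myl9 (1.66 ± 0.14) higher in E14. Cnn3 (-0.12 ± 0.10) and Actn1 (-0.34 ± 0.07) were not called.

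TGF-beta pathway genes gave 1 call higher in J1, the signal transducer Smad2 (-0.88 ± 0.12), and 2 higher in E14, the inhibitory Smad7 (0.80 ± 0.09) and the receptor kinase gene Tgfbr1 (0.73 ± 0.09), among 22 kept. The corepressor Skil (0.93 ± 0.19) and Smad4 (0.46 ± 0.17) were not called. Of 15 kept genes for microfibrils, elastic fibres and small proteoglycans 0 were called by limma; the TGF-beta-binding Ltbp4 differed by -0.41 ± 0.10, Vcan by 0.75 ± 0.22 and Fbln1 by -0.02 ± 0.22.

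**Figure D3:**
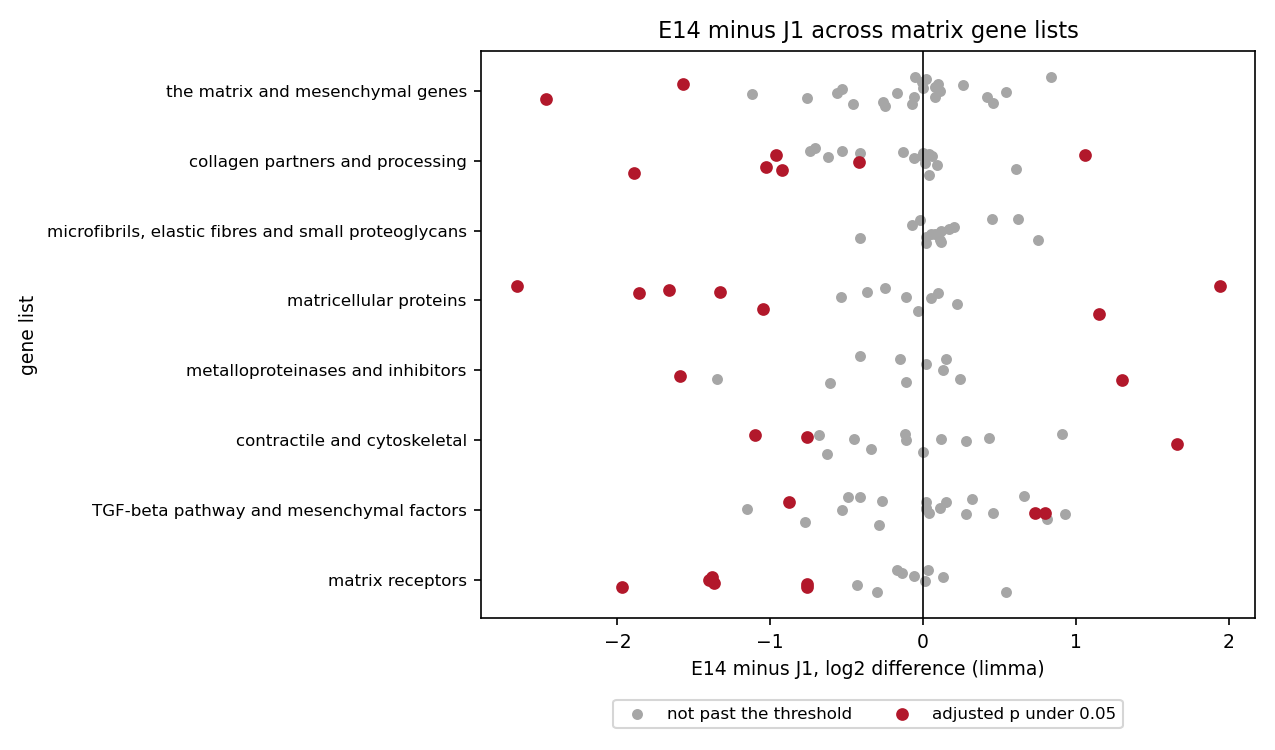
E14 minus J1 log2 difference from limma for the kept members (top) and for 7 lists of genes that act with them, 1 point per gene, red where the adjusted p was under 0.05; vertical scatter within a list has no meaning. The matrix receptors have 6 red points, all left of 0, and the microfibril list has 0.

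Markers of cell types that also make matrix were read beside these differences. Of 16 further embryonic fibroblast markers, 13 of which also stand in the lists above, 15 had a probe set, and 9 to 10 of these exceeded the filter level on each array. Their summed linear signal was 198 and 208 on the J1 arrays and 215 to 256 on the E14 arrays, with 0 called by limma among 11 kept. Highest in mean were Mfap5, Has2 and Cxcl12. Of the kept genes, 2 had every E14 array above both J1 arrays, and 0 the reverse. These were Cxcl12, which read 4.38, 3.92, 4.78, 5.52 and 5.19, and Aspn, which read 3.02 to 3.41, close to the filter level. The order of the fibroblast sums by line thus rests on few genes. The fibroblast transcription factor gene Prrx1 read 3.08 to 3.13, and Pdgfra, Meox2, Col12a1 and Mgp were under the filter level throughout. The summed signal of 15 primitive and parietal endoderm markers was 3494 and 4445 on the J1 arrays and 1681 to 1865 on the E14 arrays. Its 3 calls were Sparc and the collagen IV chain genes Col4a1 (-1.85 ± 0.14) and Col4a2 (-2.19 ± 0.20), whereas the endoderm regulators Gata4, Gata6, Sox7 and Sox17 read 3.03 to 3.84 and Foxa2 was under the filter level. The summed signal of 11 early mesoderm markers was 1138 and 1033 on the J1 arrays and 578 to 617 on the E14 arrays, where Bmp4 was the 1 call (-1.27 ± 0.11). Without their called genes these lists summed to 1001 and 995 (endoderm) and 252 and 329 (mesoderm) on the J1 arrays. The E14 arrays gave 799 to 1071 and 255 to 303, so the ranges overlapped. The genes left out were those called on these same arrays, so the overlap was partly fixed in advance. It shows only that the called genes carry the difference in the sums. Eomes, a mesoderm and endoderm regulator, was the 1 kept mesoderm marker above both J1 arrays on every E14 array (1.04 ± 0.22, limma adjusted p = 0.0617). In 4 of the 9 kept mesoderm markers both J1 arrays were higher, among them Gata2 (-1.18 ± 0.34) and Hand1 (-1.08 ± 0.38), neither of them called. In the endoderm list this was so for 6 of 14 kept genes, and the reverse for 0. Over all kept genes the shares were 21.8% with J1 higher and 27.1% with E14 higher. Of the 12 stem cell markers 4 were called higher in E14, Klf4 (2.19 ± 0.21), Esrrb (1.44 ± 0.26), Sox2 (0.80 ± 0.11) and Tdgf1 (0.54 ± 0.10), and 0 higher in J1. The part of any of these cell types in the differences was not tested.

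With Tet1 depletion, the members that differed at least 2-fold from their own control were Igfbp6 and Bgn in J1 and Cd44, Col1a1, Acta2 and Tgfbi in E14. Over both systems limma called 0 of the 25 members and 0.0% of all kept genes, with 3 members (Col1a1, Fn1 and Cd44) and 6.87% of genes at an unadjusted p under 0.05. At least 2-fold from their own control were 2 members with Tet1 siRNA in J1 (beside 1.57% of kept genes), 3 with shRNA3387 (1.81%) and 2 with shRNA2863 (1.2%). Both hairpins share 1 scramble array, and each difference is 1 array against 1 array without a replicate check. At 1.5-fold the counts were 4, 4 and 6, beside 9.0%, 8.75% and 6.89%. The median difference of the kept members was 0.00, -0.05 and -0.01 in J1 siRNA, shRNA3387 and shRNA2863, beside -0.01, -0.02 and -0.01 over all kept genes.

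In J1, Igfbp6 and Bgn were the members past 2-fold. Beside them, the 12 stem cell markers had a median difference of -0.51 on the Tet1 siRNA array, with Esrrb at -1.21 and Nanog at -0.88, against -0.09 and -0.05 with the hairpins, and the part of this in the members' differences was not tested. Igfbp6, a binding protein with preference for the insulin-like growth factor IGF-II, read 4.68, 6.57, 4.65, 4.62 and 4.65. The J1 Tet1 siRNA array alone was high, 3.71-fold above its control, and the other 4 arrays lay within 0.06 of each other. Whether those 4 values hold signal was not tested, and the fold depends on that level. Igfbp6 has no other probe set as a check. The J1 Tet1 siRNA array stood alone at least 2-fold above all others in 0.323% of kept genes and in 1.92% of kept probe sets. No member stood alone in this way on the scramble, shRNA3387 or shRNA2863 array, beside 0.169%, 0.213% and 0.0661% of kept genes and 0.154%, 0.329% and 0.0458% of kept probe sets. The J1 Tet1 siRNA array's 3′ minus 5′ differences of beta-actin (0.31) and Gapdh (-0.58) were the lowest of the 5. Those of its J1 control array (0.63 and -0.33) were the highest, and the part of this in the J1 differences was not tested. Bgn, described above, was 2.40-fold lower on the Tet1 siRNA array than on its control, at 3.10, within the range of the E14 arrays. The type I collagen genes differed in the same direction, Col1a2 by -0.29 and Col1a1 by -0.50 in the brightest probe sets, and by -0.86 and -3.00 in the second probe sets. Fn1 differed by -0.72, whereas Col5a1 differed by 0.64, Vim by 0.53, Col3a1 by 0.34 and Thbs1 by 0.33 in the brightest probe sets. Of the 25 kept members, 12 were below their control on this array and 12 above it.

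In E14, Cd44 was the member past 2-fold with both hairpins, at 4.46 with scramble and 5.84 and 5.87 with the hairpins. The folds were 2.60 and 2.66, and the mean difference of 1.40 ± 0.08 (SE, 2 hairpin arrays and 1 scramble array) had an unadjusted p of 0.00196 and an adjusted p of 0.342 in limma, where 11.0% of kept genes had an unadjusted p under 0.05. With the median over its probe sets Cd44 differed by 0.32 and 0.42, and 0 members then passed 2-fold with either hairpin. The second probe set, under the filter level on the scramble array, differed by 0.67 and 0.86. In J1 the same probe sets differed by 0.25 and 0.47. The other probe sets of Cd44 were under the filter level on every array.

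Single hairpins gave the other E14 differences past 2-fold. With shRNA3387, Acta2 was 2.75-fold lower, at 7.16 against 8.62, while with shRNA2863 it read 8.83. Tagln, a gene of the same contractile programme, differed by -0.62 and 0.03 with the hairpins in that order. Col1a1 was 2.48-fold lower with shRNA3387 and 1.65-fold lower with shRNA2863, and Tgfbi 1.43-fold and 2.03-fold lower. For Col1a1, Fn1 and Tgfbi the pooled Tet1 differences over both systems were -0.79 ± 0.25, -0.45 ± 0.16 and -0.48 ± 0.26 (SE, limma adjusted p = 0.718 for each). The second probe set of Fn1 differed by -1.15 in J1 and by 0.40 and 0.21 with the hairpins, and 1 of Tgfbi by 0.60 in J1 and by -1.10 and -0.89. Timp1 differed by -0.34 and -0.65 and Thy1 by 0.43 and 0.78 with the hairpins, opposite in sign to the 0.11 and -0.44 in J1.

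**Figure D4:**
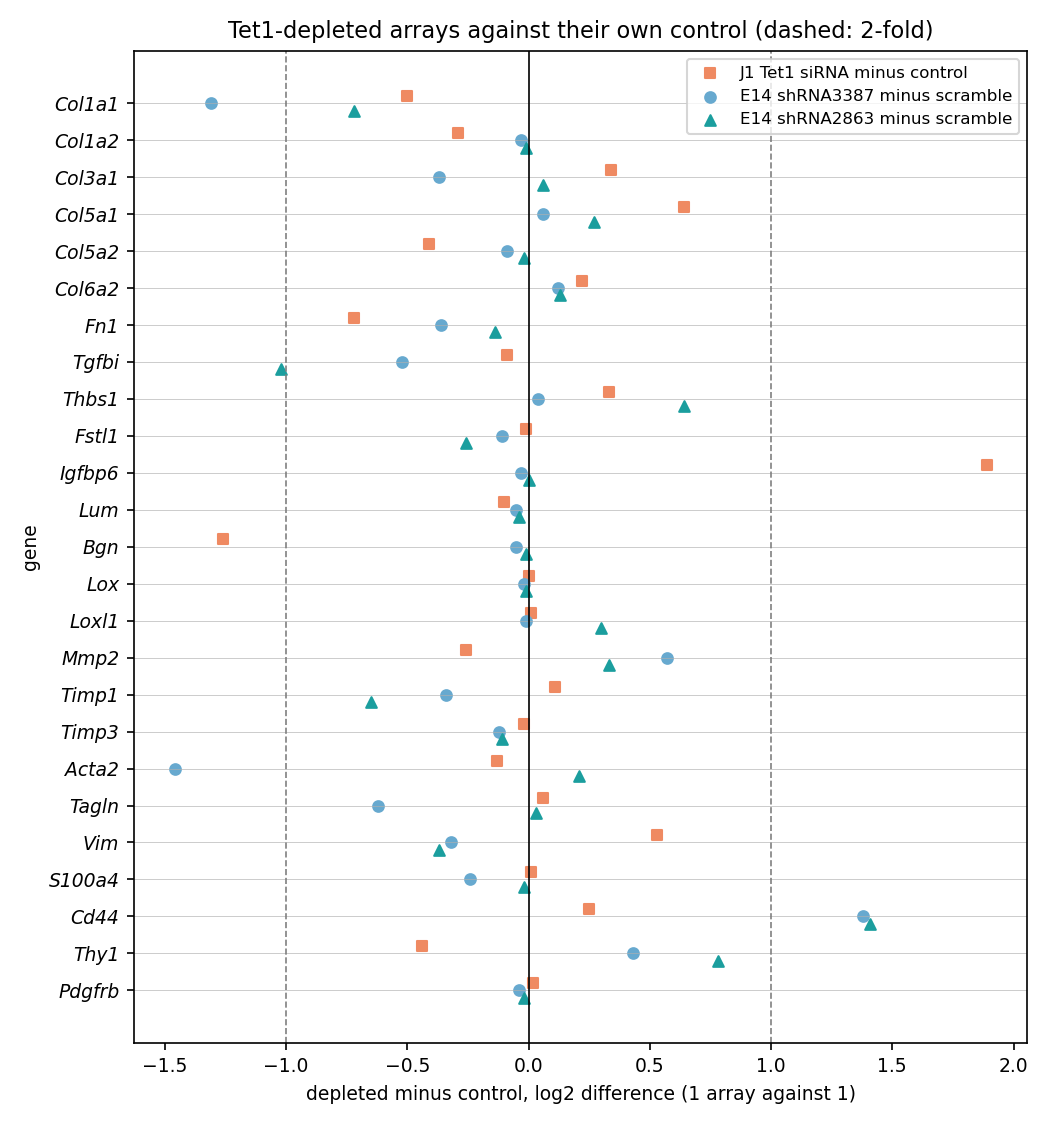
Log2 difference of each Tet1-depleted array from its own control for the 25 kept members, with dashed lines at 2-fold. Igfbp6 at 1.89 and Bgn at -1.26 stand out in J1, Cd44 at 1.38 and 1.41 with both hairpins, and Acta2 at -1.46 with shRNA3387.

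Whether an effect differed between the systems was tested with limma on 4 means, and 0 members and 0.0% of kept genes passed. At an unadjusted p under 0.05 were Bgn (E14 effect minus J1 effect 1.23 ± 0.06), Igfbp6 (-1.91 ± 0.11), Cd44 (1.15 ± 0.12) and Vim (-0.88 ± 0.10, SE), beside 13.9% of kept genes, each with an adjusted p of 0.332. The error comes from the hairpin arrays alone. Bgn lay at the filter level on them, and Igfbp6 read 4.62 and 4.65 there beside 4.65 with scramble, so their small SEs rest on nearly equal values. Vim differed by 0.53 in J1 and by -0.32 and -0.37 with the hairpins.

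Across the 113 kept genes of the 7 lists, 2 passed 2-fold with Tet1 siRNA in J1 (1.77%), 3 with shRNA3387 (2.65%) and 1 with shRNA2863 (0.885%). They were Igfbp2 (-1.07) and Tgfb1 (-1.06) in J1, Col5a3 (-1.07), Ltbp3 (1.03) and Ccn4 (-1.18, to a value under the filter level) with shRNA3387, and the calponin gene Cnn1 (1.07) with shRNA2863. Several of these were named after their values were seen.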

How the data were processed

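The deposited values are log2 probe set summaries of 5 arrays, 1 per group. The scale was inferred from the range of 1.38 to 14.12, and the authors' summary, background correction and normalization are not named by any label or header used here, so the relation of folds to RNA amount at dim probe sets is unknown. Symbols came from the platform annotation given with the values (34945 probe sets with 1 symbol, 932 with several, 64 array controls), and older list symbols were matched through RefSeq (GRCm38.p6). No further normalization was applied. Groups came from the labels.

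Genes were kept above the 40th percentile on at least 1 array (13619 of 18193). Two-sided tests were run with limma (3.58.1; R 4.3.3), moderated along an intensity trend, and adjusted by Benjamini-Hochberg over all kept genes at 0.05. The fit over both systems had system and Tet1 terms and 2 residual degrees of freedom; the fit of 4 means had 1. Pairs of arrays were described by 2-fold. The fits were also run on simulated arrays with independent noise and known differences, as a check of the code. Those arrays lack differences between the hairpins, so the check does not show how well the fits describe these data. Members, lists and the rule for naming genes (all members; per list the 3 of highest mean and up to 4 called) were chosen with earlier results of these data known. The number of arrays limits the precision.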

Additional observations from a re-analysis of the deposited data

How the results depend on the processing

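With 1 array per group, every test borrows its spread from other arrays, and values near the filter level carry little information. No paired analysis was possible because each group holds 1 array and the labels carry no replicate numbers. Leaving out each array in turn gave 0 to 0 genes and 0 to 0 members called for E14 minus J1, against 1936 and 2 with all arrays, and the fit of 4 means likewise gave 0 and 0; each leaves 1 residual degree of freedom. With the median over probe sets 4 members were called (Cd44, Col1a2, Fstl1 and Thbs1), and with each probe set tested on its own, chosen after seeing the data, 4238 of 24018 probe sets. Quantile normalization split the E14 minus J1 calls 1295 higher to 1088 lower, against 870 to 1066. At 1.5-fold, 4 members passed in J1, 6 with shRNA2863 and 5 between the control arrays. With the median over probe sets 0 passed 2-fold with either hairpin, where Cd44 differed by 0.32 and 0.42, Col1a1 by -0.67 and Tgfbi by -0.58. Median centring left 1 with shRNA2863, where Tgfbi came to -0.99. Between shRNA2863 and J1 Tet1 siRNA, a comparison added after seeing the data, 6 passed. For E14 minus J1, Col1a2 and Thbs1 kept their direction under every alternative run. The cause of these changes was not tested.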
